A study of Mus musculus with 32 samples.

Results

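The comparison described here is that of hnRNP E1 knockdown cells with their parental cells after TGFβ treatment, in total RNA. It comprised 4 of the 32 arrays of the series, namely the 2 titled as total RNA of TGFβ-treated E1KD cells and the 2 titled as total RNA of TGFβ-treated NMuMG cells, chosen by title with no measured value. NMuMG is an epithelial line of the normal mouse mammary gland (genotype wild type in the labels), and E1KD is its hnRNP E1 knockdown derivative, formerly termed SH14. Both were grown in serum-containing medium with insulin and treated with TGFβ2 at 5 ng/ml for 24 h, and RNA was extracted without fractionation and hybridized to Affymetrix GeneChips of the mouse genome. The same lines without TGFβ (4 arrays of total RNA) and the monosomal and polysomal RNA pools with TGFβ (8 arrays) served for comparison. E1KD is 1 derived line set against its parent, with no second knockdown line and no control line carried through the same derivation among these arrays, so that effects of the knockdown and other differences between the 2 lines cannot be told apart.

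hnRNP E1, encoded by Pcbp1, is a poly(C)-binding protein that binds RNA through KH domains and can hold back the translation of bound mRNAs. In mammary epithelial cells TGFβ signals through its receptors and Smad proteins, and a kinase cascade that phosphorylates hnRNP E1 releases such mRNAs for translation. TGFβ also drives EMT, the epithelial-mesenchymal transition, during which epithelial cells give up junctions and polarity and gain matrix production and motility, and E1KD cells are described by the study as undergoing EMT without TGFβ.

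Levels are log2 RMA signals (RMA is a method that summarises the probes of a gene's probe set into 1 value per array), and differences are E1KD minus NMuMG on that scale, so that 1 stands for a 2-fold difference. Of 25432 probe sets tested with limma, those with an adjusted p under 0.05 are spoken of as called, higher or lower. The labels name the 2 samples of a group biological replicates, and since separate cultures are not stated, p-values measure the spread between these samples. Replicate arrays correlated across probe sets with Pearson's r of 0.996 in E1KD cells and 0.997 in NMuMG cells. For genes of mitosis, DNA replication and stress responses, as given below, the 2 treated total RNA arrays of E1KD cells differed from NMuMG cells, by the median of each list, in the other direction than untreated total RNA and the treated pools did. Pcbp1 was low in these 2 arrays, the labels were kept as given, and whether the treatment and fraction in their titles hold was not tested.

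Pcbp1 was low in the E1KD arrays, as the labels state. With TGFβ it was at 13.14 in each of the 2 NMuMG arrays and at 9.55 and 9.33 in the E1KD arrays. The difference was -3.70 (standard error 0.10, adjusted p = 3.71e-13, limma). Without TGFβ the difference was -2.28, and the 2 differences themselves differed by -1.42 (standard error 0.15, adjusted p = 8.04e-06, limma). In the polysomal and monosomal pools with TGFβ, on other arrays, Pcbp1 differed by -4.03 and -4.61. The E1KD and NMuMG arrays did not overlap in any fraction.

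**Figure D1:**
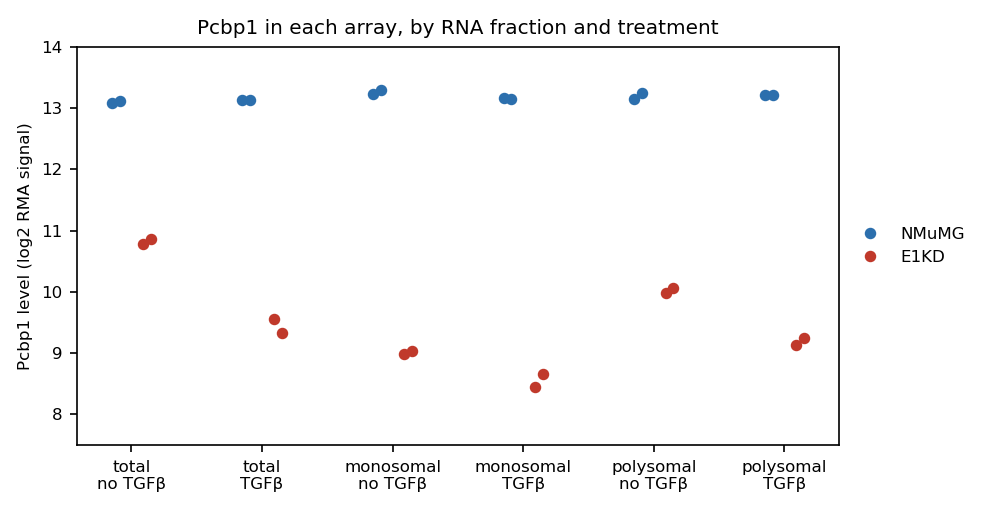
Level of Pcbp1 (y axis, log2 RMA signal) in each of 24 arrays, 1 point per array, by RNA fraction and treatment (x axis) in NMuMG (blue) and E1KD cells (red). The NMuMG arrays with TGFβ in total RNA sit at 13.14 and the E1KD arrays at 9.55 and 9.33.

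The close relatives of Pcbp1 behaved differently from it. Pcbp2, which shares most of its domains and RNA motif with Pcbp1, was at 12.89 and 13.05 in E1KD cells and 13.05 and 13.11 in NMuMG cells, a difference of -0.11 (95% confidence interval -0.33 to 0.11) that was not called, although 1 of its 3 probe sets was called at -0.42. Pcbp3 differed by -0.22 (-0.46 to 0.02) and Hnrnpk, the more distant KH-domain relative hnRNP K, by 0.06 (-0.22 to 0.34), neither of them called. Pcbp4 was higher in E1KD cells (8.97 and 8.94 against 8.01 and 8.09), by 0.90 (standard error 0.12, adjusted p = 2.76e-05, limma).

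In all, 6917 of the 25432 probe sets (27.2%) were called, 3732 higher (14.7%) and 3185 lower (12.5%) in E1KD cells. Reduced to 1 probe set for each of 12600 genes, 3819 genes (30.3%) were called, 1987 higher (15.8%) and 1832 lower (14.5%), and the median difference over all genes was -0.04. At least a 2-fold difference was called for 1021 genes (8.1%), with 599 higher (4.75%) and 422 lower (3.35%). The counts of gene lists below are to be read against these shares. For the other contrasts the shares of genes called higher and lower were 17.8% and 15.1% without TGFβ, 24.0% and 22.0% in the polysomal pool and 16.4% and 19.1% in the monosomal pool with TGFβ. The difference between the lines itself differed between the treatments for 6.33% of genes upwards and 6.83% downwards. The split depended on the scaling. With arrays centred on Actb, 8103 probe sets were higher and 605 lower, and the median difference moved up by 0.45, whereas with centring on the Actb and Gapdh control probe sets of the array 2824 were higher and 5118 lower, and the median moved by -0.14. A list median that lies below 0 by less than the first shift, or above 0 by less than the second, changes its sign with that scaling, which holds for each such list below. Counts moved likewise. Several lists below had more members called lower than higher. Of these, only tight junctions, cholesterol synthesis, stress responses and luminal epithelial markers kept that balance with the first centring. One of the 2 Actb probe sets of the first centring itself differed between the lines (9.65 and 9.72 in E1KD against 11.09 and 10.40 in NMuMG cells), and the other did not pass the test (0.15). The signal of the 3′ over the 5′ Actb control probe sets, a sign of RNA integrity, was 0.39 and 0.47 in E1KD and 0.61 and 0.58 in NMuMG cells (log2), and its part in the results was not tested.

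The largest increases in E1KD cells were of genes with little or no signal in NMuMG cells. Lhfp, a gene of a tetraspan membrane protein family, was at 10.44 and 10.68 in E1KD cells and at 3.43 and 3.42 in NMuMG cells, 7.14 higher (standard error 0.17). Hs6st2, a sulfotransferase that modifies heparan sulfate chains, was at 11.18 and 11.19 against 4.40 and 4.48, 6.74 higher (standard error 0.20). Hexa, the alpha subunit of lysosomal beta-hexosaminidase, was at 11.15 and 11.23 against 5.73 and 5.58, 5.54 higher (standard error 0.14). The NMuMG values of the first 2 lie below or near the lower quartile of all values of the table (4.30) and that of Hexa near the median (5.52), so that these fold differences rest on a low signal on the NMuMG side.

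The remaining genes among the 15 largest increases were of mixed function. Btbd11 was 5.61 higher, the raft proteolipid Mal 5.58, Ndrg4 5.54, the cAMP phosphodiesterase Pde8a 5.45, the glutamine transporter Slc38a1 5.41 and the neuronal microtubule-associated protein Map2 5.28. Sox11, a transcription factor of neural development, was at 8.88 and 8.41 in E1KD cells and at 3.44 and 3.52 in NMuMG cells, 5.16 higher (standard error 0.23). Armcx3 was 5.08 higher, Tead2, a DNA-binding partner of YAP and TAZ, 5.00, the adhesion receptor Adgrg2 4.89, the membrane protein Flrt2 4.86 and the zinc finger gene Zfp518b 4.86. Each of the 15 was also called higher in the polysomal pool and in the monosomal pool with TGFβ. Probe sets were tested only if above 5.52 on 8 or more of the 32 arrays. A gene low in all NMuMG arrays met this only with signal in E1KD pools as well, so for such genes the agreement is partly set by that rule.

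The largest decreases included secreted proteins, enzymes and epithelial structural proteins. Prdx4, the peroxiredoxin of the endoplasmic reticulum, was at 4.02 and 4.15 in E1KD cells and at 11.03 and 11.01 in NMuMG cells, a difference of -6.94 (standard error 0.11). Igfbp4, which binds insulin-like growth factors, differed by -6.37, and each of its 6 probe sets was called lower, from -6.37 to -0.98. Krt7, a keratin of simple epithelia, was at 5.16 and 4.96 against 11.17 and 11.25, a difference of -6.15 (standard error 0.20). The E1KD values of all 3 lie below the median of the table, so that these differences rest on a low signal on the E1KD side.

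Cdh16, the Ksp-cadherin of epithelia, was lower by a difference of -6.00, the tetraspanin-like Tm4sf1 by -5.96, the alpha-1-antitrypsin gene Serpina1b by -5.94, the calprotectin subunit S100a8 by -5.79 and the galectin Lgals4 by -5.01. The glycine cleavage enzyme Gldc differed by -5.00, the MAGE-family gene Ndn by -4.82, Eva1b by -4.75, complement factor Cfb by -4.46, Palmd by -4.32 and Sec16b, of the exit sites of the endoplasmic reticulum, by -4.10. Mmp13, a collagenase, was at 6.25 and 5.62 in E1KD cells and at 10.11 and 9.86 in NMuMG cells, a difference of -4.05 (standard error 0.25). Mmp13 was the exception in the pools, where it differed by -0.16 in polysomal and 0.00 in monosomal RNA with TGFβ (neither called), and the other 14 were called lower in both pools. The probe sets of Serpina1b, Ndn and S100a8 can hybridize to related transcripts by their design (suffix _x_at or _s_at), and near-identical copies of Serpina1 genes cannot be separated by them.

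**Figure D2:**
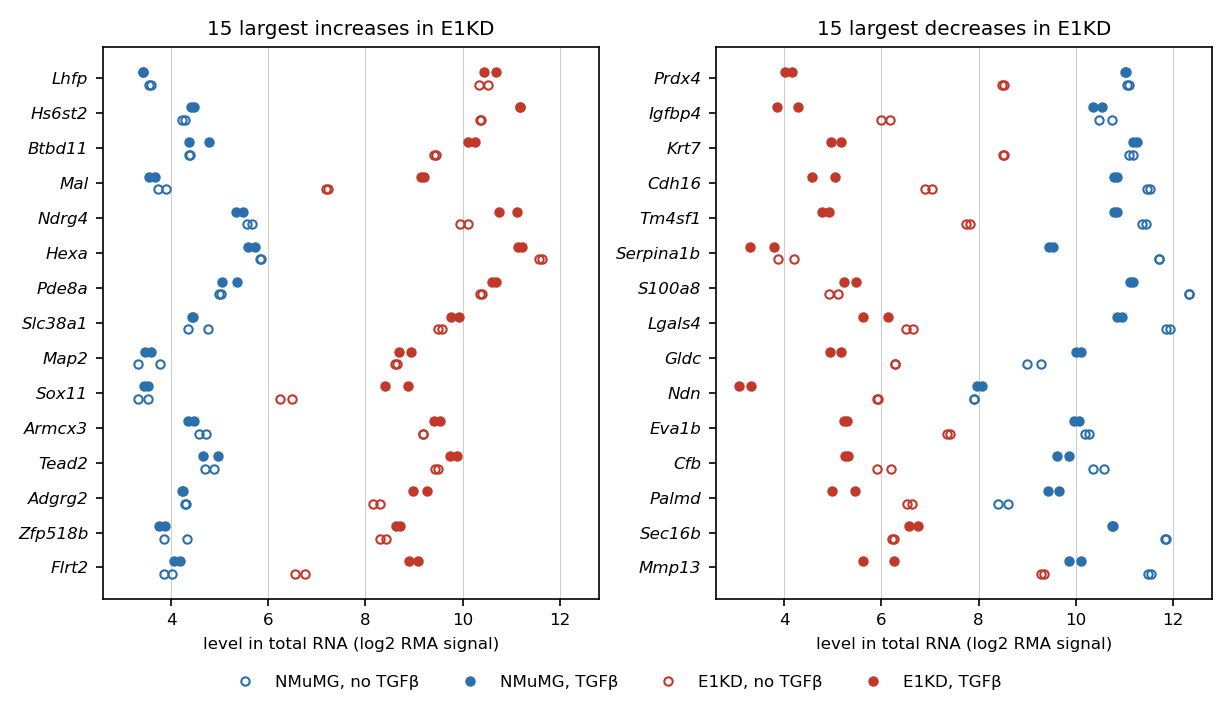
Level in total RNA (x axis, log2 RMA signal) of the 15 genes with the largest increase (left) and the 15 with the largest decrease (right) in E1KD against NMuMG cells with TGFβ, 1 point per array, filled with TGFβ and open without. The filled red and blue points of each gene do not overlap, from Lhfp (10.44 and 10.68 against 3.43 and 3.42) to Mmp13 (6.25 and 5.62 against 10.11 and 9.86). The genes were chosen among those without such overlap.

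The labelled cell type was checked against its markers. Luminal epithelial keratins were high in both lines, with Krt8 at 14.38 and 14.37 in E1KD and 14.34 in both NMuMG arrays, and Krt18 at 14.43 and 14.42 against 14.46 and 14.45. Krt19 was higher in E1KD cells, by 0.60 (standard error 0.11). Epcam lay between 5.90 and 6.06 in the 4 arrays, near the median of the table, so that this defining marker was at most weakly measured in either line. Defining markers of fibroblasts (Dcn, Lum, Pdgfra) were between 4.17 and 5.50, those of leukocytes Ptprc and Adgre1 between 3.41 and 4.80, those of endothelium Pecam1 and Cdh5 between 3.86 and 4.64 and those of adipocytes Adipoq and Fabp4 between 3.52 and 4.69, all under the median of the table. The endothelial marker Kdr was near that median, at 5.33 and 5.92 in E1KD cells and 5.67 and 5.64 in NMuMG cells. Above the median of the table were 8 and 9 of 14 luminal markers in E1KD and NMuMG cells, with a summed level (log2) of 15.67 to 15.69, 2 and 0 of 10 basal, 2 and 1 of 14 fibroblast, 3 and 3 of 13 leukocyte, 2 and 2 of 9 endothelial and 1 and 1 of 5 adipocyte markers. The summed levels of these last 5 lists were 7.24 to 9.71. The macrophage receptor gene Csf1r was at 8.15 and 8.18 in E1KD cells and 8.51 and 8.72 in NMuMG cells. In bulk RNA, fewer cells with an mRNA and less of it per cell cannot be told apart.

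Members of cell junctions did not move as 1 block. Of 17 genes of tight junctions and polarity, 9 were lower and 1 was higher in E1KD cells, with a median difference of -0.60. With centring on Actb 3 were lower and 1 higher (median -0.15), and in the polysomal pool with TGFβ 4 were lower and 5 higher. Occludin (Ocln), a strand protein of tight junctions, was at 6.90 and 6.53 against 9.42 and 9.35, a difference of -2.67 (standard error 0.19). Cldn4, a claudin, was at 5.71 and 5.70 against 8.35 and 8.36, a difference of -2.65 (standard error 0.26). The polarity proteins Pard6b and Crb3 differed by -1.67 and -1.18, and Llgl2, Cxadr, Lsr, Patj and Cgn were lower by smaller amounts, whereas the polarity scaffold Pard3 was 0.48 higher.

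Of 20 genes of adherens junctions and desmosomes, 4 were higher and 2 lower (median 0.03). E-cadherin (Cdh1) was at 12.23 and 12.18 in E1KD cells and at 12.53 and 12.39 in NMuMG cells, a difference of -0.26 (95% confidence interval -0.55 to 0.04) that was not called. N-cadherin (Cdh2) was at 12.11 and 12.10 against 11.64 and 11.56, 0.50 (-0.06 to 1.07), not called either. The arrays of the 2 lines did not overlap for Cdh1 or Cdh2, although neither passed the test, which pools the spread of the other RNA fractions. Such a lack of overlap was common, with 18018 of the 25432 probe sets showing it. The nectins went in both directions, with Nectin3 and Nectin4 higher by 1.04 and 1.19 and Nectin2 lower at -0.74, and the desmosomal plakophilin Pkp1 was 1.32 higher. In NMuMG cells Nectin4 (5.12 and 4.88) and Pkp1 (5.37 and 5.33) lay below the median of the table. Both differences thus rest on a low signal on that side.

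Among epithelial surface proteins and proteases 5 of 15 were lower and 1 was higher (median -0.34). The mucin Muc1 was at 8.06 and 8.04 against 9.54 and 9.67, a difference of -1.56, and the tetraspanin Tspan8 differed by -1.08. Of 15 epithelial regulators of transcription and splicing, the factors Tfap2a (-1.35) and Ehf (-1.10) were lower and the other 13, among them Grhl2 (-0.01) and Esrp2 (0.14), did not pass the test. Vimentin (Vim), the intermediate filament used as a mesenchymal marker, was at 14.07 and 14.06 in E1KD cells and 13.92 and 13.94 in NMuMG cells, 0.14 (-0.05 to 0.32), not called.

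The transcription factors of EMT were likewise split, with 3 of 13 higher and 3 lower (median 0.04). Snai2 (Slug) was at 10.19 and 10.18 in E1KD cells and at 11.14 and 11.19 in NMuMG cells, a difference of -0.98 (standard error 0.18, adjusted p = 0.000738, limma). Zeb2 differed by 0.06 (-0.47 to 0.60), with overlapping arrays, and Zeb1 differed by 0.28 (adjusted p = 0.0524, limma). Twist2 was 1.17 higher, Foxq1 0.56 and Snai1 0.46, and Sox9 and Hmga2 were lower at -0.64 and -0.52. Twist2 was at 6.27 and 5.78 in E1KD cells against 4.78 and 4.93 in NMuMG cells. Snai1 was at 5.55 and 5.96 against 5.35 and 5.24. These levels lie near or below the median of the table (5.52), so both differences rest on a low signal. Without TGFβ Snai2 and Zeb2 were higher in E1KD cells, by 1.06 and 1.66, and the change of the line difference between the treatments was called for both (-2.04 and -1.59). In the polysomal pool with TGFβ Snai2 was 1.99 higher and Zeb2 1.98 higher in E1KD cells, unlike in total RNA with the same treatment.

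Matrix genes were more often higher than lower in total RNA. Of 12 collagen genes 7 were higher and none lower, with a median of 0.69, whereas 2 were higher and 1 lower in the polysomal pool with TGFβ (median -0.05) and 3 and 2 in the monosomal pool. Col4a1 and Col4a2, the paired chains of basement membrane collagen, were 1.86 and 1.54 higher, Col5a1 1.66, Col6a1 1.52, Col6a3 1.02, Col7a1 0.78 and Col12a1 0.60. Col4a1 was at 11.53 and 11.60 in E1KD cells and at 9.72 and 9.70 in NMuMG cells. Col6a1 (4.51 and 4.49) and Col6a3 (5.35 and 5.32) lay below the median of the table in NMuMG cells. The fibrillar collagen genes Col1a1 and Col3a1 had no probe set kept and were not tested. Serpinh1, the collagen chaperone of the endoplasmic reticulum, was 1.65 higher (8.31 and 8.25 against 6.69 and 6.57).

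Of 28 matrix glycoproteins and crosslinking enzymes, 9 were higher and 4 lower (median 0.11). Fibronectin (Fn1) was at 12.94 and 12.92 in E1KD cells and at 11.49 in both NMuMG arrays, 1.44 higher (standard error 0.11, adjusted p = 7.16e-08, limma). Fbln2 was 1.62 higher, the collagen-binding protein Sparc 1.32 and the lysyl oxidase Loxl4 1.73. The laminin chains Lamb3, Lama5 and Lamb1 were lower, at -1.36, -0.84 and -0.62.

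Among proteases the gelatinase Mmp2 was at 8.40 and 8.36 against 5.52 and 5.32, 2.96 higher (standard error 0.15), and Adam12 was 1.94 higher in total RNA but differed by -0.04 and -0.20 in the polysomal and monosomal pools. Timp2 was lower by its probe set of highest mean (-0.37), while 4 of its 5 probe sets were called higher, up to 0.92, so that its direction is unsettled. Of 14 integrin genes 4 were lower and 2 higher, with Itgb4, the hemidesmosome subunit, at -1.46 and Itgb3 at -1.28, and Itgb5 and Itga5 higher by 0.87 and 0.56. Of 29 genes of contractile actin and its regulators 10 were higher and 4 lower (median 0.12). Smooth muscle actin (Acta2) was at 6.55 and 6.75 against 5.56 and 5.41, 1.16 higher, Palld and Cdc42ep3 were 1.14 and 1.74 higher, and villin (Vil1), of epithelial microvilli, was lower by a difference of -2.78.

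The TGFβ pathway differed between the lines at several levels. Of 22 genes of TGFβ and activin ligands and receptors 7 were higher and 5 lower (median 0.10). Inhbb, the activin B subunit, was at 9.26 and 9.33 in E1KD cells and at 4.90 and 5.05 in NMuMG cells, 4.32 higher (standard error 0.18). Bmp2 was at 6.93 and 6.95 against 3.92 and 3.87, 3.04 higher (standard error 0.30). The ligand genes Tgfb2, Inhba and Tgfb1 were 1.40, 1.20 and 0.62 higher, and Bmp4 was lower at -1.74.

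Among receptors, Tgfbr3 (betaglycan, a co-receptor that presents TGFβ2) was at 5.31 in both E1KD arrays and at 7.75 and 7.93 in NMuMG cells, a difference of -2.53 (standard error 0.17). The type II receptor Tgfbr2 was 0.86 higher and the type I receptor Tgfbr1 differed by -0.40 (adjusted p = 0.057, limma). Of 20 Smads and feedback regulators 6 were lower and 3 higher (median -0.16), among them the signal transducers Smad2 (-1.24) and Smad3 (-0.64) and the inhibitory Smad7 (-0.68). Smad4, the common partner, differed by -0.02 (-0.31 to 0.28).

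Of 21 genes known to be induced by TGFβ, 12 were higher in the treated E1KD cells than in the treated NMuMG cells and 3 were lower, with a median of 0.52. Angptl4 was 2.02 higher, the cell-cycle inhibitor Cdkn1a 1.40, Ak1 1.38 and the cytokine Il11 1.10, besides Col4a1 and Fn1 above. Thbs1 (0.28), Itgb6 (0.52) and Skil (-0.33) did not pass the test. Ccn1, Smad7 and Cdkn2b were lower. Without TGFβ the same list had a median difference of 0.84, with 15 members higher and 2 lower, and the change between the treatments was called in 10 members, 8 of them downwards.

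Id2, an inhibitor of differentiation that TGFβ represses in epithelial cells, was also higher in the treated E1KD cells. By its probe set with the largest change it was at 11.04 and 11.03 in E1KD cells and at 8.75 and 8.86 in NMuMG cells with TGFβ, 2.23 higher (standard error 0.12). Id3 was 1.45 higher, and Id1 (0.32) and Id4 (0.04) did not pass the test. In the polysomal pool with TGFβ Id2 was lower in E1KD cells by the same probe set, at -1.13, and in the monosomal pool it differed by 0.26.

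Receptor tyrosine kinase signalling and cytokines gave no common direction. The EGF receptor (Egfr) was at 10.53 and 10.55 in E1KD cells and 11.75 and 11.76 in NMuMG cells, a difference of -1.22 (standard error 0.28), and 5 of 11 genes of the EGF receptor family were lower and 3 higher, with the ligand Ereg 1.28 higher. Of 13 genes of FGF and PDGF signalling 6 were lower, including the feedback inhibitors Spry1 (-1.11) and Spred1 (-0.98), and 1, Fgfr3, was 1.32 higher. Of 22 chemokine and cytokine genes 5 were higher and 4 lower, with the interleukin 1 receptor antagonist Il1rn 1.95 higher and Csf2 (-1.45), Il33 (-1.32) and Ccl2 (-0.95) lower. S100a4, a calcium-binding protein used as a mesenchymal marker, was at 12.53 and 12.58 against 9.58 and 9.55, 2.99 higher (standard error 0.17), whereas S100a9 (-1.44) was lower as S100a8 was.

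Genes of mitosis and DNA replication were higher in the TGFβ-treated E1KD cells. Of 48 mitosis genes 31 were higher and none lower (median 0.68, and 0.54 to 1.14 over the scalings tried). The mitotic kinase Plk1 was at 10.49 and 10.44 in E1KD cells and at 8.84 and 9.07 in NMuMG cells, 1.51 higher (standard error 0.20, adjusted p = 3.32e-05, limma). Mki67, which encodes the Ki-67 antigen, was at 12.04 and 12.08 against 10.73 and 10.71, 1.34 higher (standard error 0.11). The motor protein genes Kif20a and Kif2c were 1.48 and 1.34 higher, and Cenpa, the centromeric histone, was 1.24 higher.

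Of 47 DNA replication genes 30 were higher and 1, Pold1, was lower (median 0.58). Without TGFβ 7 were higher and 13 lower, and the change between the treatments was called upwards for 22. In the pools with TGFβ 12 were higher and 20 lower in polysomal RNA (median -0.18) and 5 and 11 in monosomal RNA. Cyclin E2 (Ccne2) was 2.18 higher, and Rrm2, the small subunit of ribonucleotide reductase, was at 12.33 and 12.18 against 10.15 and 10.03, 2.16 higher. The helicase subunit Mcm5 was 1.62 higher. Among 19 G1 cyclins and CDK inhibitors 10 were higher and 4 lower, and those higher included the inhibitors Cdkn2c (1.57), Cdkn1a (1.40) and Cdkn2d (1.39) beside the cyclins Ccnd2 (1.34) and Ccnd1 (0.44).

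The direction of the mitosis genes in total RNA with TGFβ differed from that in untreated total RNA and in the treated pools. The untreated pools were not compared. Without TGFβ 38 of the 48 mitosis genes were lower in E1KD cells and none higher (median -0.80). The change between the 2 treatments was called for 43 of the 48, each upwards. The mean level of the 48 genes was 10.46 and 10.47 in TGFβ-treated E1KD cells, 8.96 and 9.06 in untreated E1KD cells, 9.73 and 9.78 in treated NMuMG cells and 9.79 and 9.84 in untreated NMuMG cells. In the polysomal pool with TGFβ 5 of the 48 were higher and 19 lower in E1KD cells, and in the monosomal pool 1 was higher and 20 lower.

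Genes of the unfolded protein and integrated stress responses, which cells switch on when proteins misfold in the endoplasmic reticulum or amino acids run short, were lower in the TGFβ-treated E1KD cells. Of 33 such genes 27 were lower and 1 was higher (median -0.78), and with centring on Actb 15 were lower and 1 higher (median -0.32). Ddit3, the stress-induced transcription factor CHOP, was at 9.81 and 9.84 in E1KD cells and at 12.76 and 12.75 in NMuMG cells, a difference of -2.93 (standard error 0.10, adjusted p = 2.74e-12, limma). Atf3 was at 8.80 and 8.73 against 11.02 in both NMuMG arrays, a difference of -2.26 (standard error 0.12). The chaperones and folding enzymes Creld2, Pdia4, Sdf2l1 and Dnajc3 differed by -1.96, -1.94, -1.90 and -1.61, the regulators Atf4 and Xbp1 by -0.82 and -1.06, and the main chaperone of the compartment, Hspa5 (BiP), by -0.74. Slc7a5, a transporter of large neutral amino acids, was the member that was higher, by 1.03.

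Here too the treated total RNA of E1KD cells stood apart from their untreated total RNA and their treated pools. Without TGFβ 22 of the 33 were higher in E1KD cells and 3 lower (median 0.42), and the change between the treatments was called downwards in 26 and upwards in none. In the polysomal pool with TGFβ 18 were higher and 7 lower, and in the monosomal pool 12 were higher and 4 lower. Ddit3 was 1.27 and 0.90 higher in E1KD cells in those 2 pools, where its group means were 12.89 and 13.08 in E1KD cells against 11.62 and 12.18 in NMuMG cells. Across the probe sets tested, the 2 treated total RNA arrays of E1KD cells correlated with the polysomal arrays of the same cells and treatment at r of 0.868 to 0.896, and the untreated total RNA arrays of E1KD cells at 0.893 to 0.911. In NMuMG cells treated and untreated total RNA correlated with treated polysomal RNA alike, at 0.844 to 0.845. The measure did not tell the treatments apart there, so no conclusion on the E1KD arrays is drawn from it. For the mitosis, DNA replication and stress lists the direction in total RNA with TGFβ is not that of the pools.

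**Figure D3:**
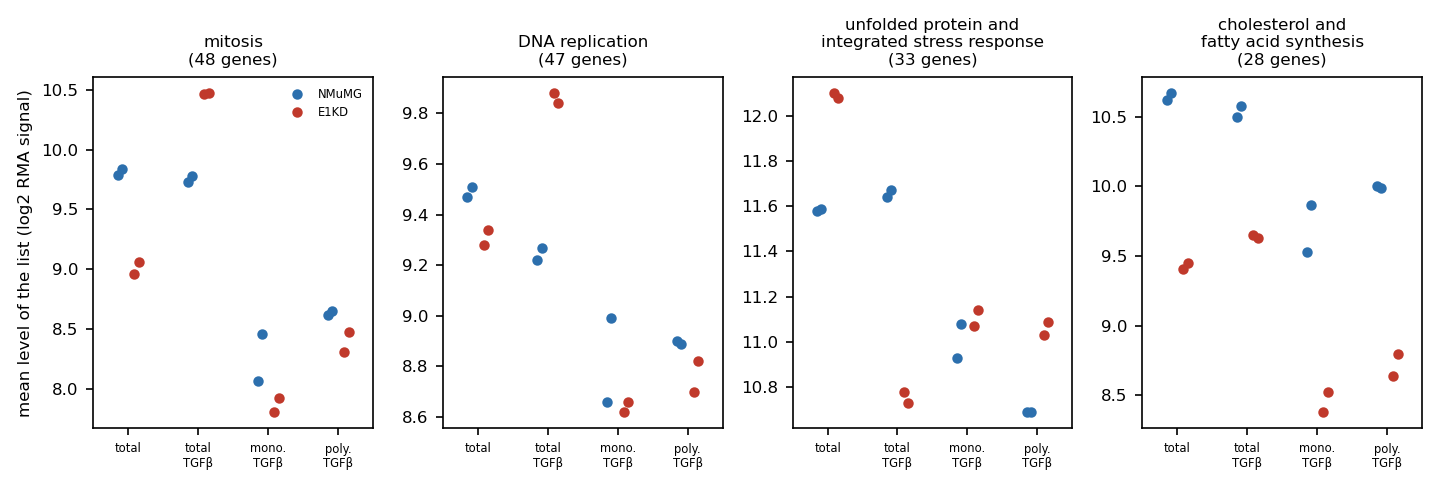
Mean level (y axis, log2 RMA signal, a separate range in each panel) of the members of 4 gene lists in each array, 1 point per array, in total RNA without and with TGFβ and in the monosomal and polysomal pools with TGFβ (x axis), for NMuMG (blue) and E1KD cells (red). For mitosis the treated E1KD total RNA arrays (10.46 and 10.47) lie above and for the stress responses (10.78 and 10.73) below the other 6 total RNA arrays, while for cholesterol synthesis the E1KD arrays lie below the NMuMG arrays in each of the 4 columns.

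Genes of cholesterol and fatty acid synthesis were lower in E1KD cells in each setting measured. Of 28 genes 23 were lower with TGFβ in total RNA and none was higher (median -0.84), and with centring on Actb 10 were lower and 1 higher (median -0.39). Squalene synthase (Fdft1) was at 9.77 and 9.73 in E1KD cells and at 11.58 and 11.72 in NMuMG cells, a difference of -1.90 (standard error 0.14, adjusted p = 5.28e-08, limma). Cyp51, the lanosterol demethylase, was at 9.18 and 9.15 against 11.04 and 11.10, also -1.90 (standard error 0.15). Tm7sf2, Fdps, Insig1 and Lss differed by -1.76, -1.68, -1.44 and -1.43, and Srebf2, the transcription factor that switches on this pathway, by -1.15. Without TGFβ 27 of the 28 were lower, and with TGFβ all 28 were lower in the polysomal pool and 25 in the monosomal pool.

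Other metabolic and organelle lists were mixed. Of 29 lysosomal genes 14 were lower and 5 higher (median -0.31, but 0.14 with centring on Actb), with Naglu at -1.66 and Gusb 1.76 higher, while Hexa and Ctsh, a cathepsin that was 4.70 higher, were the extremes. Of 26 genes of glycolysis and the hypoxia response 5 were higher and 4 lower. Pfkp, the platelet phosphofructokinase, was at 9.10 and 9.02 against 4.32 and 4.60, 4.60 higher (standard error 0.20), and the aldolase Aldoc differed by -3.13 and the glucose transporter Slc2a1 by -1.34. Of 29 glutathione and NRF2 target genes 11 were higher and 5 lower, with Hmox1, heme oxygenase 1, 1.45 higher and Gclc, the catalytic subunit of the first enzyme of glutathione synthesis, 1.27 higher, and the cystine transporter Slc7a11 at -1.20. Of 21 genes of iron handling, a process that PCBP proteins serve as iron chaperones, 2 were higher (Hmox1 and the iron exporter Slc40a1, 0.46) and 4 lower, and ferritin heavy chain (Fth1) and the transferrin receptor (Tfrc) differed by 0.16 and 0.02, not called.

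Few genes of the translation machinery were called in total RNA. Of 38 genes of cytosolic ribosomal proteins 3 were lower (Rpl14 at -0.46, Rps6 at -0.45 and Rpl22 at -0.40) and none was higher, a called share of 7.89% against 30.3% of all genes. Of 38 initiation and elongation factors 2 were higher and 5 lower, with Eif5a2 0.71 higher and Eif3m at -0.52. These counts rested on the scaling. With centring on the control probe sets 12 ribosomal protein genes were lower and none higher, and 13 factors were lower and 2 higher, while with centring on Actb 4 ribosomal protein genes and 14 factors were higher and none lower. In the polysomal pool with TGFβ 17 of the 38 factors were higher in E1KD cells and 4 lower.

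**Figure D4:**
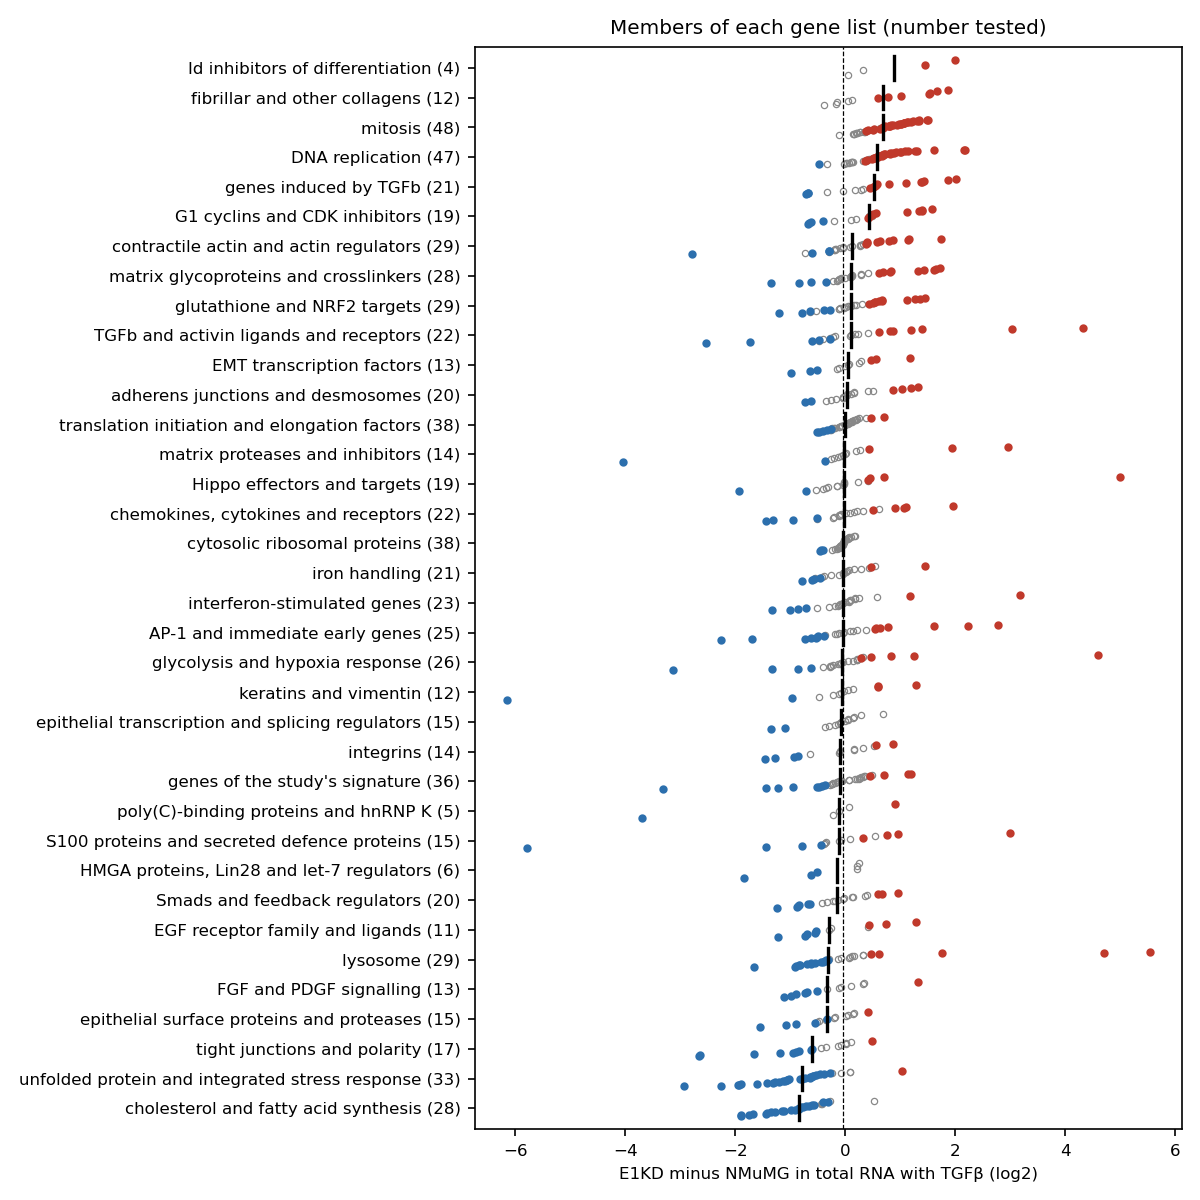
Difference between E1KD and NMuMG cells in total RNA with TGFβ (x axis, log2) for the members of 36 gene lists (y axis, number of genes tested in parentheses), 1 point per gene, with red called higher, blue called lower and open grey not called. Black bars are list medians and the dashed line is the median of all genes (-0.04), and the lists of stress responses and cholesterol synthesis (medians -0.78 and -0.84) and of mitosis (0.68) are among those with most members on 1 side of 0.

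Of 23 interferon-stimulated genes 4 were lower and 2 higher. The histocompatibility gene H2-D1 was at 9.81 and 9.68 in E1KD cells and at 6.50 and 6.64 in NMuMG cells, 3.18 higher (standard error 0.27). Its relatives share sequence, and its probe set may read more than 1 of them. Among 19 Hippo effectors and targets Tead4 was lower (-1.94) where Tead2 was higher, and Yap1 differed by 0.41 (adjusted p = 0.0855, limma). Of 25 AP-1 and immediate early genes 7 were higher and 8 lower, with the transcription factor genes Egr1 2.77 and Jun 1.62 higher and Fos at -1.70. Trim71, a target of let-7 microRNAs, was lower at -1.84.

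The study's signature comprises 36 genes that its authors chose in part on these samples, so that their behaviour in this comparison is not independent of the choice. Of the 36, 4 were higher, 8 lower and 24 did not pass the test, with a median of -0.10. With centring on Actb the balance turned, to 13 higher and 2 lower (median 0.36), and in the polysomal pool with TGFβ 17 were higher and 8 lower. Inhba was at 10.92 and 10.87 in E1KD cells and at 9.68 and 9.72 in NMuMG cells, 1.20 higher. Palld, Eif5a2 and Cast were 1.14, 0.71 and 0.45 higher.

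The signature gene with the largest difference was Prxl2a, a peroxiredoxin-like protein gene, at 8.97 and 8.96 against 12.24 and 12.32, a difference of -3.32 (standard error 0.11). Jak2 (-1.44), Egfr (-1.22), Ccl2 (-0.95), Hmga2 (-0.52), Gna13 (-0.48), Sh3glb1 (-0.42, although another of its probe sets was 0.50 higher) and Rbms1 (-0.37) were lower as well. Moesin (Msn, 0.28), Actn1 (0.26), Fam3c (the cytokine ILEI, -0.24) and Zeb2 were among those not called, but a second probe set of Msn was called at 0.70 and 1 of Fam3c at 0.42.

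The cell-line difference was then compared with and without TGFβ, on separate arrays. Without TGFβ 7453 probe sets were called (29.3%). Of the 3732 probe sets higher with TGFβ 2068 were also called higher without it, which is 55.4% of those and 51.6% of the 4009 higher without TGFβ, and of the 3185 lower with TGFβ 1638 were called lower without it (51.4% of those and 47.6% of 3444). Opposite calls were made for 206 and 181. The difference itself differed between the treatments for 2910 probe sets (11.4%).

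Among genes whose difference moved upwards with TGFβ, Sprr1a, a cornified envelope protein, was at 10.46 and 10.44 in treated and 8.12 and 8.13 in untreated E1KD cells, and at 7.50 and 7.53 in treated and 9.58 and 9.62 in untreated NMuMG cells. The line difference thus went from -1.48 to 2.94 (change 4.41, standard error 0.18). Id2 was at 8.54 and 8.68 in untreated E1KD cells and at 10.68 and 10.86 in untreated NMuMG cells, so that its difference went from -2.16 to 2.23 (change 4.39, standard error 0.17). For both genes the 2 lines moved in opposite directions between the treatments.

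Plat, tissue plasminogen activator, was at 9.88 and 9.94 in treated and 8.30 and 8.34 in untreated E1KD cells, and at 9.84 and 9.95 in treated and 12.03 and 12.13 in untreated NMuMG cells, so that a difference of -3.76 without TGFβ was 0.02 with it. The chemokine Cxcl5 was at 10.77 and 10.79 in treated and 8.24 and 8.33 in untreated E1KD cells, and at 10.18 and 10.15 in treated and 11.23 and 11.38 in untreated NMuMG cells. Egr1 was at 9.19 and 9.02 in treated and 7.51 and 7.62 in untreated E1KD cells, and at 6.40 and 6.27 in treated and 7.96 and 8.01 in untreated NMuMG cells. In these genes E1KD cells were higher and NMuMG cells lower with TGFβ than without it.

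Nrp1, a co-receptor for semaphorins and VEGF, was at 10.04 and 10.00 in treated and 7.32 and 7.55 in untreated E1KD cells, and at 5.94 and 5.67 in treated and 6.80 and 6.57 in untreated NMuMG cells. Aldh1a1, a retinaldehyde dehydrogenase, was at 10.98 and 10.84 in treated and 9.85 and 9.93 in untreated E1KD cells, and at 7.00 and 7.44 in treated and 9.28 and 9.41 in untreated NMuMG cells. Both were higher in E1KD cells with TGFβ, by 4.22 and 3.69. The probe set of highest mean put Nrp1 at a difference of 3.68. In the polysomal pool with TGFβ Nrp1 was 1.02 and Aldh1a1 2.91 higher.

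Transthyretin (Ttr) was at 3.20 and 3.60 in treated and 3.30 and 3.27 in untreated E1KD cells, and at 6.47 and 6.56 in treated and 9.82 and 9.70 in untreated NMuMG cells. Here the measured change lay on the NMuMG side. The E1KD values lay below the lower quartile of the table (4.30), where a decrease could hardly be seen. By its probe set of highest mean Ttr differed less, by -2.36 without and -0.78 with TGFβ. Tcstv1 was at 7.10 and 6.94 in treated and 3.84 and 3.95 in untreated E1KD cells, and at 5.11 and 4.82 in treated and 5.17 and 5.42 in untreated NMuMG cells. AF067061 was at 9.07 and 9.13 in treated and 5.73 and 5.65 in untreated E1KD cells, and at 7.39 and 7.34 in treated and 7.74 and 7.58 in untreated NMuMG cells. In contrast to Ttr, the change of these last 2 lay on the E1KD side, and in the polysomal pool with TGFβ they were lower in E1KD cells, at -3.04 and -2.84.

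Among genes whose difference moved downwards with TGFβ, Prdx4 and Krt7 were lower in treated than in untreated E1KD cells and changed little in NMuMG cells. Untreated E1KD cells had Prdx4 at 8.48 and 8.53 and untreated NMuMG cells at 11.10 and 11.06, so that the difference was -2.58 without TGFβ and -6.94 with it. Krt7 was at 8.51 and 8.53 in untreated E1KD and 11.09 and 11.18 in untreated NMuMG cells, a difference of -2.62. Ndn, by its probe set with the largest change, was at 4.32 and 3.97 in treated and 6.90 and 7.25 in untreated E1KD cells, and at 8.75 and 8.85 in treated and 8.66 and 8.44 in untreated NMuMG cells. By its probe set of highest mean Ndn differed by -1.04 without and -2.26 with TGFβ, a change that was not called. Like Pcbp1, the 3 genes had their lowest total RNA level in treated E1KD cells.

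The stress genes among the 10 largest downward changes were Ddit3, Atf3 and Sdf2l1. Ddit3 was at 13.45 and 13.54 in untreated E1KD cells and at 12.77 and 12.79 in untreated NMuMG cells. Atf3 was at 11.86 and 11.80 in untreated E1KD and 10.22 and 10.28 in untreated NMuMG cells. Sdf2l1 was at 9.01 and 8.86 in treated and 12.18 and 12.17 in untreated E1KD cells, and at 10.80 and 10.88 in treated and 10.83 and 10.94 in untreated NMuMG cells. Each was above NMuMG cells without TGFβ and below them with it.

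Klhl30, a kelch-like protein gene, was at 8.59 and 8.57 in treated and 9.70 and 9.85 in untreated E1KD cells, and at 9.29 and 9.38 in treated and 4.71 and 4.42 in untreated NMuMG cells. Its difference of 5.21 without TGFβ was -0.76 with it, the largest change of either direction (-5.96, standard error 0.34, adjusted p = 1.33e-08, limma). Cldn4 was at 6.33 and 6.60 in untreated E1KD and 5.76 and 5.90 in untreated NMuMG cells, so that it was higher with TGFβ in NMuMG cells and not in E1KD cells. The secreted carbonic anhydrase Car6 was at 7.12 and 6.92 in treated and 10.84 and 11.05 in untreated E1KD cells, and at 7.56 and 7.73 in treated and 7.48 and 7.68 in untreated NMuMG cells. Mamdc2 was at 5.27 and 5.12 in treated and 9.34 and 9.40 in untreated E1KD cells, and between 5.02 and 5.31 in the 4 NMuMG arrays. In Car6 and Mamdc2 the lines came close to each other with TGFβ, and in the polysomal pool with TGFβ they were still 1.92 and 2.71 higher in E1KD cells.

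**Figure D5:**
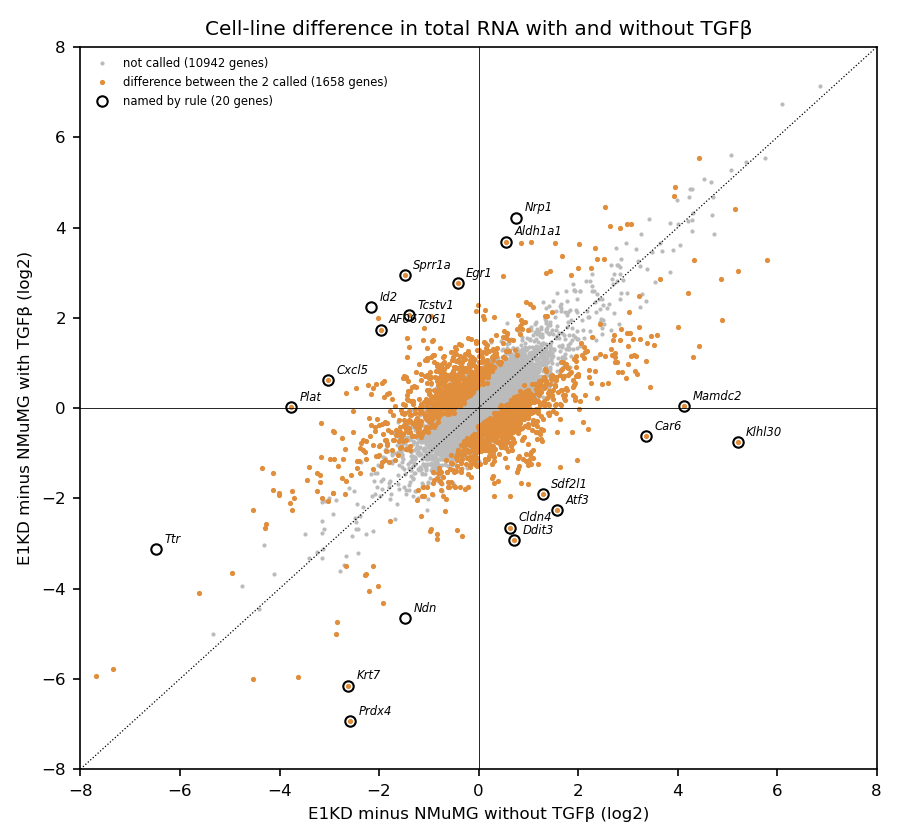
Difference between E1KD and NMuMG cells in total RNA without TGFβ (x axis, log2) and with TGFβ (y axis, log2), 1 point per gene for 12600 genes, with orange where the difference between the 2 was called and circles for the 20 genes named here (for Id2, Ndn, Nrp1 and Ttr the circle stands at the probe set of largest change, apart from the gene's own point). The dotted line marks equal differences, and Klhl30 (5.21 without and -0.76 with TGFβ) and Sprr1a (-1.48 and 2.94) lie farthest from it.

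The cell-line differences of total RNA with TGFβ were finally set beside those of the ribosome-associated pools of the same treatment. Of the 599 genes at least 2-fold higher in total RNA 446 were called higher and 33 lower in the polysomal pool, and 395 higher and 19 lower in the monosomal pool. Genes low in all NMuMG arrays were tested only with signal in E1KD pools as well, so their agreement is partly set by the filter. Of the 422 at least 2-fold lower 317 were called lower and 25 higher in the polysomal pool, and 302 lower and 12 higher in the monosomal pool. Genes such as Hexa (6.14 and 4.90 higher in the polysomal and monosomal pools), Tead2 (6.25 and 5.52), Prdx4 (-6.44 and -6.54) and Lgals4 (-7.38 and -7.29) had differences of similar or larger size there. Mmp13, Adam12, Col5a1 (-0.26 in polysomal RNA) and Id2 did not keep their total RNA difference.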

How the data were processed

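The 24 arrays analysed, of 32, hold 2 each of 3 RNA fractions (total, monosomal, polysomal), 2 cell lines and 2 treatments. The authors normalized the array data by RMA in Affymetrix Expression Console, and the deposited values are log2 signals with 2 decimals, used here without further normalization. Groups were taken from the deposited titles. The 64 control probe sets were left out, and probe sets above 5.52 (the median over the whole table) on 8 or more of the 32 arrays were tested. The table holds no detection calls. Of 25432 probe sets kept, 22090 were named with 1 gene symbol by the platform annotation (621 with several, 2721 with none), for 12600 genes, and 34754 probe sets of the array with 1 symbol matched RefSeq gene IDs. The 24 arrays were fitted as 12 group means in limma 3.58.1 (R 4.3.3, moderated and two-sided, 12 residual degrees of freedom), with Benjamini-Hochberg adjustment over the probe sets kept in each contrast and a threshold of 0.05. Pooling gives a median standard error of 0.182 (log2), against 0.095 in a fit of the 8 total RNA arrays alone. The 8 immunoprecipitation arrays were not used in this fit.

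A gene in a list stood by its kept probe set of highest mean over the 24 arrays. Named genes are Pcbp1 and its relatives, the 15 largest increases and decreases called with non-overlapping arrays (1 probe set each, the one of largest difference), core genes of 42 lists with up to 6 called members of largest difference, the 10 largest changes of the line difference in each direction, and the study's signature. Cgn, Col12a1, Esrp2, Id4, Lama5, Lamb1, Lsr, Pard3, Patj, Pold1, Slc7a5, Srebf2 and Xbp1, list members outside this rule, were chosen after their values were seen. The members and lists were chosen with earlier results of these data known. The number of arrays limits the precision. Tables were handled with Python 3.11.15, pandas 2.3.3 and numpy 2.4.6, and the procedure was tested on simulated data. Alternatives were other sets of arrays, filters and scalings, a replicate block, array weights, an intensity trend, linear means, other probe sets per gene and leaving out each array.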

Additional observations from a re-analysis of the deposited data

Results flagged for a closer look

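For 20 probe sets the difference between E1KD and NMuMG cells with TGFβ differed from that without TGFβ by limma's test of the difference itself, and they are the 10 largest changes in each direction. Upwards (log2) these were Sprr1a with 4.41, Id2 4.39, Plat 3.78, AF067061 3.70, Cxcl5 3.64, Nrp1 3.46, Tcstv1 3.46, Ttr 3.36, Egr1 3.19 and Aldh1a1 3.14. Downwards these were Klhl30 with -5.96, Prdx4 -4.36, Mamdc2 -4.08, Car6 -3.99, Atf3 -3.84, Ddit3 -3.64, Krt7 -3.54, Cldn4 -3.28, Sdf2l1 -3.20 and Ndn -3.18. With 2 arrays in a group, no array could be tested for standing apart from its group.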

How the results depend on the processing

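Of the called counts with TGFβ (3732 probe sets higher and 3185 lower in E1KD cells), without TGFβ (4009 and 3444) and of the change between the treatments (1464 upwards and 1446 downwards), those under all 32 arrays, no filter, either other filter, quantile normalization, centring on the median and an intensity trend stayed within 1.5 times. A fit of the 8 total RNA arrays gave 6075 and 5728, 6129 and 5732, and 3627 and 3713 in the same order, array weights gave 6140 and 5759, 6572 and 6194, and 4016 and 4064, and the 4 arrays alone gave 5064 lower. Centring on Actb gave 8103 and 605 with TGFβ, 1652 lower without it and 237 downwards, and centring on the control probe sets, chosen after seeing the data, gave 5118 lower and 3005 downwards. The Actb centring rests on 2 Actb probe sets because no probe set kept was named Gapdh. Leaving out 1 array at a time gave 2416 to 2785 higher and 1964 to 2249 lower with TGFβ, 2761 to 3852 and 2263 to 3302 without it, and 890 to 1014 and 829 to 1000 for the change; the lone array was assumed to vary like the other groups. Counts fell by over 1.5 times without replicate 1 of either line with TGFβ (2416 and 2431 higher), without replicate 2 of either (2071 and 1964 lower) and, untreated, without NMuMG replicate 2 (2263 lower), and for the change, in at least 1 direction, without each of the 8 total RNA arrays. The replicate numbers were not taken to pair the arrays, since deviations of same-numbered arrays did not correlate above 0.1 in every pair of the 4 total RNA groups. They correlated at 0.01 between the lines with TGFβ and at -0.04 and 0.04 in the other pairs that hold treated E1KD arrays, but at 0.21 between the lines without TGFβ and at 0.25 and 0.29 between treated NMuMG and the untreated E1KD and NMuMG arrays. With the replicate block the counts were 3761 and 3233, 4033 and 3488, and 1503 and 1498. Among called named genes the direction turned with the Actb centring for Csf1r and Rps6 (0.00 each), Rbms1 (0.08), Rpl22 (0.05), Sh3glb1 (0.03) and Timp2 (0.08). Among those not called it turned with the same centring for Cdh1 (0.20), Fam3c (0.21), Grhl2 (0.44), Krt18 (0.42), Pcbp2 (0.34), Pcbp3 (0.24), Skil (0.12), Smad4 (0.44) and Tgfbr1 (0.06). With centring on the median and on the control probe sets it turned for Epcam (-0.02 and -0.09), Krt8 (-0.02 and -0.10), Mamdc2 (-0.01 and -0.09), Plat (-0.04 and -0.12) and Tfrc (-0.04 and -0.11), and with the latter alone for Hnrnpk (-0.08), Vim (-0.00) and Zeb2 (-0.07). Leaving out 1 array turned Epcam (-0.04), Grhl2 (-0.38 to 0.36 over the arrays left out), Mamdc2 (-0.08 to 0.18), Plat (-0.04 to 0.07), Smad4 (up to 0.06), Tfrc (down to -0.02) and Zeb2 (-0.19 to 0.32). Each centring shifts all differences with TGFβ by 1 amount, 0.45 for Actb, -0.06 for the median and -0.14 for the control probe sets. The 2 Actb probe sets themselves differed between the lines by -1.06 and 0.15, and why they disagree was not tested. The cause of the other changes was not tested either.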
